A study of Mus musculus with 4 samples.

Results

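The genes described here are 5 members of the Wnt pathway: the ligand genes Wnt9a, Wnt4 and Wnt7a, the receptor gene Fzd7 and the antagonist gene Sfrp1. They were chosen by symbol, with earlier results of these data known, and every MyoD peak that the deposited lists assign to one of them was collected. A peak is assigned to a gene when it touches the gene body or one of its 2-kb flanks, and a gene that a list does not name counts as having no peak there. Of the 5 genes, 2 had a peak (Wnt9a and Wnt4), where 27.1% of 21896 RefSeq protein-coding genes had one. The lists name 7235 genes, and each of these has a peak. Wnt9a and Wnt4 held 5 of the 11907 peaks in the list from myotubes with pyruvate. They held 6 of the 19338 peaks in the list from myotubes without pyruvate.

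Binding of MyoD, a bHLH transcription factor of the muscle lineage, was mapped by ChIP-seq in myotubes, the fused and multinucleated cells that myoblasts form. Myoblasts came from C57BL/6 mice, 2 weeks old, and were grown in primary culture. Both cultures were differentiated in 2% horse serum over 5 days and then held in differentiation medium, with or without pyruvate, during a further 24 hours. The series has 4 samples, namely a MyoD ChIP and an input for the culture with pyruvate and the same pair for the culture without, and the inputs were not analysed here.

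Each condition had 1 ChIP library, so differences between the lists could not be checked on replicates and none was tested. The titles of the samples alone say which culture a list came from. A short code in the names of the deposited lists could be read the other way round, and no measured value here checks it. The authors' fold enrichment is 0 in every row that holds a number, so the width of a peak was the only measure left for a single peak. Read depth is unknown, and a site absent from 1 list may still have been bound but too weakly to be called. Of 8 loci of muscle genes (Myog, Des, Chrna1, Ttn, Ckm, Acta1, Cdh15 and Myh3), 8 had a peak with pyruvate and 6 without. Of 6 loci of fibroblast genes (Col1a1, Col1a2, Col3a1, Pdgfra, Dpt and Thy1), 2 had a peak with pyruvate and 4 without. Over all 21896 protein-coding genes of the RefSeq table, 17.8% had a peak with pyruvate and 24.5% without.

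Wnt proteins are secreted, lipid-modified ligands that bind Frizzled receptors together with co-receptors of the Lrp, Ror or Ryk type. Signalling through Lrp5 or Lrp6 stabilises beta-catenin, which then acts with Tcf and Lef factors in the nucleus, while other branches act on cell polarity and calcium. In skeletal muscle, Wnt7a is known to act through Fzd7 on satellite cells, the muscle stem cells, and secreted Frizzled-related proteins such as Sfrp1 bind Wnt ligands outside the cell. MyoD binds E-boxes, short DNA motifs with the letters CANNTG, among which CAGCTG is a form it is known to prefer.

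Wnt9a, a ligand known for its part in joint formation and cartilage, was the member with the most peaks. It had 5 peaks in the list with pyruvate and 4 in the list without, all inside the gene body and none in a flank. The lists give the gene (ENSMUSG00000000126) a body of 26.6 kb on the plus strand of chromosome 11 of mouse build mm9 (chr11:59120430-59147054). They do not say which parts are exons or introns. Of the peaks, 4 with pyruvate overlapped 4 without, and 1 peak with pyruvate had no partner. Among all peaks, 71.8% of the list with pyruvate (95% exact binomial interval 71.0 to 72.7, which covers counting error only) and 44.2% of the list without (43.5 to 44.9) overlapped the other list by at least 1 base.

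The RefSeq promoter windows of Wnt9a and Wnt4 are printed to show which E-boxes stand at the starts of the member genes that carried peaks. Each window runs from 250 bases before the RefSeq start to 50 bases after it, on build GRCm38.p6 (chr11:59306680-59306979, plus strand, and chr4:137277385-137277684, plus strand). Capitals mark the letters CANNTG, which read the same on both strands.
Wnt9a: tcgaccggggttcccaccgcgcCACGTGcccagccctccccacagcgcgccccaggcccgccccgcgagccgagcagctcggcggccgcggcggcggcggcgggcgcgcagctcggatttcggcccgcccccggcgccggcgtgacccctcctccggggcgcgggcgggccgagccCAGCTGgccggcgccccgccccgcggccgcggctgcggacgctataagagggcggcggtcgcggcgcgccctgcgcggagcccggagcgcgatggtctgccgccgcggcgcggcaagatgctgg
Wnt4: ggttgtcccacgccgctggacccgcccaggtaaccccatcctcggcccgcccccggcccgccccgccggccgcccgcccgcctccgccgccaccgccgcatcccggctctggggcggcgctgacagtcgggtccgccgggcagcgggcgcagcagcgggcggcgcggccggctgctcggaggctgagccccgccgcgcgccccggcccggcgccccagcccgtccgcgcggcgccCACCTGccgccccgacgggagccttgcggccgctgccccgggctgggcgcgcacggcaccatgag
The Wnt9a window holds 2 E-boxes, CACGTG starting 228 bases before the start and CAGCTG starting 74 bases before it. The Wnt4 window holds 1, CACCTG, starting 15 bases before the start. Of 32851 such windows in the RefSeq table, 72.3% hold CANNTG, 16.3% hold CAGCTG, 20.2% hold CACCTG or its reverse complement CAGGTG, and 7.15% hold CACGTG. The windows of Wnt7a and Fzd7, genes without a peak, hold 1 E-box (CACTTG) and 0. These matches describe the letters only. By the starts that the lists give, the nearest peak began 1020 bases inside Wnt9a and 8790 bases inside Wnt4. No member peak thus lay at the starts that the lists give, and the marked E-boxes were not placed against the peaks described here. Start sites of the 2 builds were not aligned to each other, and the sequence under the peaks themselves was not analysed here.

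The peak of Wnt9a nearest to its start began 1155 bases inside the gene body in the list with pyruvate and 1020 bases inside it in the list without. It was 418 bases wide with pyruvate (chr11:59121585-59122003) and 562 bases wide without (chr11:59121450-59122012). The narrower interval lay wholly within the wider one. Its width stood at percentile 91.4 of all peaks with pyruvate and at percentile 97.9 of all peaks without, so it was among the wide peaks of both lists. It was also the only peak of any member within 2 kb of a start that the lists locate.

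A group of peaks followed between 5 and 7 kb into the gene. With pyruvate it held 3 peaks over 1392 bases (chr11:59125668-59127060), and without pyruvate 2 peaks over 1095 bases (chr11:59125993-59127088). The first of the 3, at chr11:59125668-59125934, was 266 bases wide and was seen only with pyruvate. It ended 59 bases short of the nearest peak without pyruvate and 73 bases short of the next peak of its own list. Of the 3352 peaks with pyruvate that lack a partner, 9 (0.268%) lay within 100 bases of a peak of the other list. This site is thus one of a few without a partner that lie so close to a peak of the other list.

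The second of the 3 was the closest match between the lists at Wnt9a. It was 296 bases wide with pyruvate (chr11:59126007-59126303) and 278 bases wide without (chr11:59125993-59126271), and the centres lay 23 bases apart. The last of the 3 was 236 bases wide with pyruvate (chr11:59126824-59127060) and 147 bases wide without (chr11:59126941-59127088), with 119 bases in common. At percentile 2.08 of its list, the interval without pyruvate was close to the narrowest width there, 144 bases, whereas the one with pyruvate stood at percentile 42.7. In the whole lists, 11.1% of the peaks with pyruvate and 11.6% of those without had another peak of the same list within 1 kb. At Wnt9a this held for 3 of 5 peaks with pyruvate and 2 of 4 without.

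The last peak of Wnt9a lay deep in the gene, with its centre 16282 bases from the start in the list with pyruvate and 16230 bases in the list without. It was 421 bases wide with pyruvate (chr11:59136501-59136922) and 273 bases wide without (chr11:59136523-59136796), which lay wholly inside the other. It was the widest peak of the gene with pyruvate, at percentile 91.6, but the peak nearest the start was nearly as wide there, at 418 bases. Without pyruvate the peak nearest the start was the widest.

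**Figure D1:**
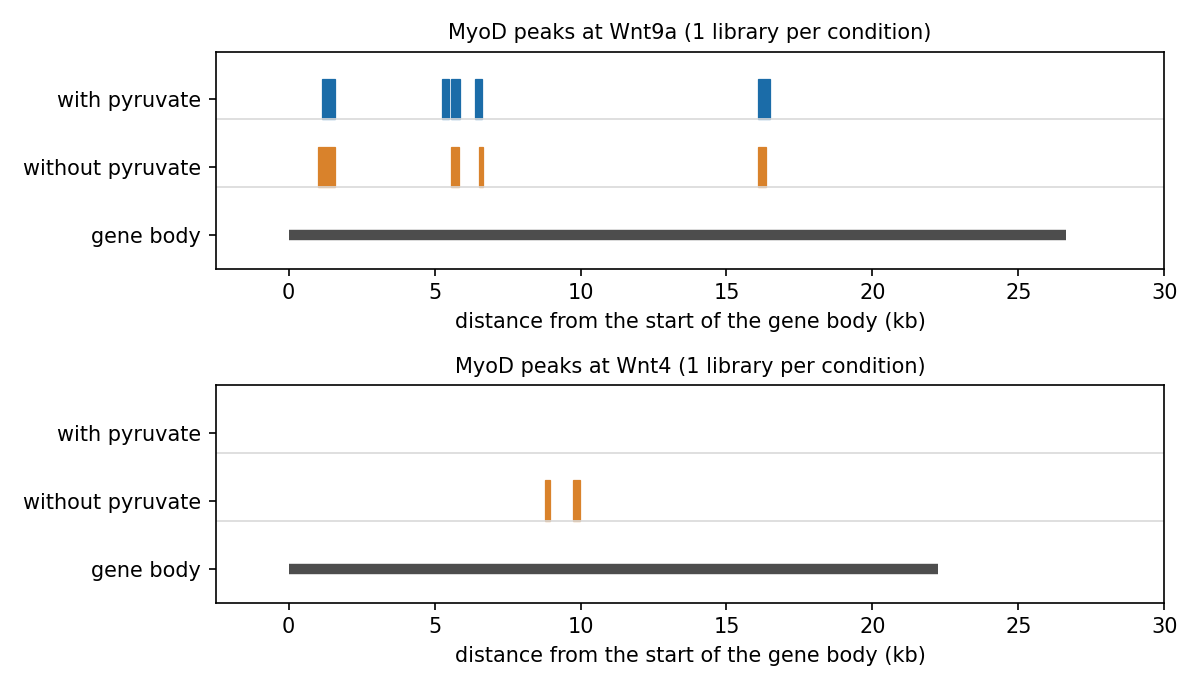
MyoD peaks in the bodies of Wnt9a (above) and Wnt4 (below), drawn to scale against the distance in kb from the start of the gene body, with 1 row for the list with pyruvate and 1 for the list without. Each coloured box spans 1 peak. Wnt9a shows 5 boxes with pyruvate and 4 without, and 4 of the 5 overlap a box of the other row. Wnt4 shows 0 with pyruvate and 2 without.

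Widths at the 4 shared sites of Wnt9a differed in both directions. Width with pyruvate minus width without was -144 bases at the site nearest the start, 18 bases and 89 bases at the next shared sites, and 148 bases at the last, so the peak was wider with pyruvate at 3 sites and narrower at 1. Over all 8592 overlapping pairs of the lists, the peak with pyruvate was the wider in 38.2%, and the median difference was -22 bases (interquartile range -73 to 30). A difference of at least 144 bases in either direction was seen in 12.8% of these pairs. The ratio of widths, with over without, was 1.61 and 1.54 at the last shared sites of Wnt9a, and 7.04% of all pairs reached a ratio of 1.5. In the opposite direction, without over with, 12.4% of all pairs reached 1.5. Sequencing depth and the length of the fragments also act on width, and their part in these differences was not tested.

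**Figure D2:**
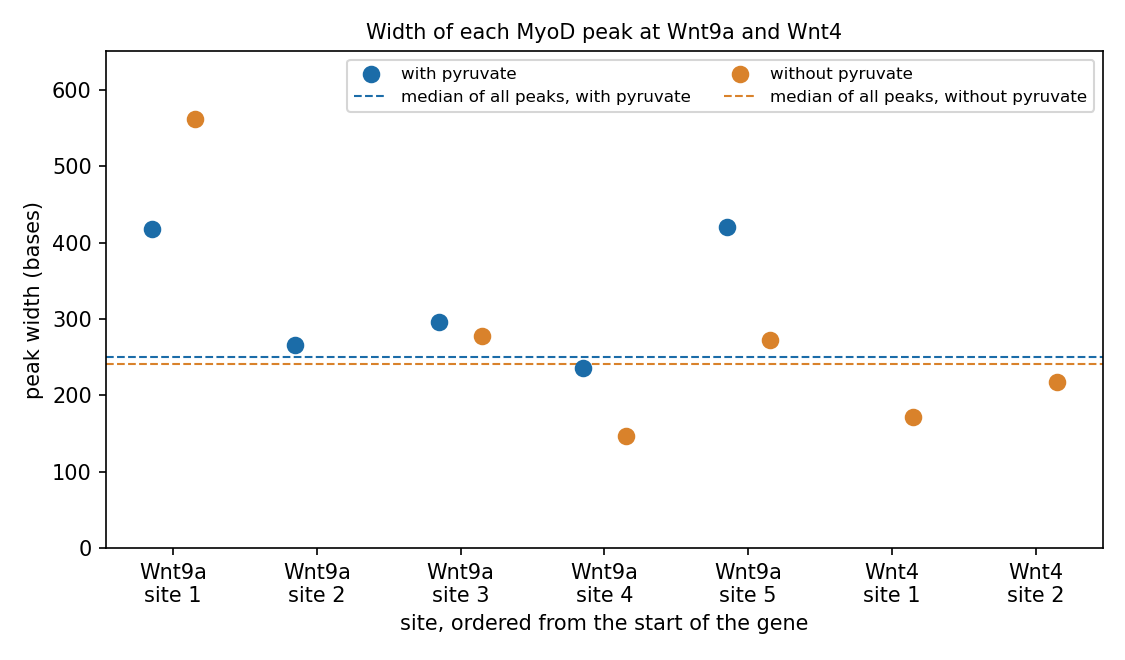
Width in bases of each MyoD peak at Wnt9a (sites 1 to 5, from the start of the gene) and Wnt4 (sites 1 and 2), with points for the lists with and without pyruvate and dashed lines at the median of all peaks, 250 bases with pyruvate and 241 bases without. Wnt9a site 1 was wider without pyruvate (418 against 562 bases) and site 5 wider with it (421 against 273 bases), and both Wnt4 points lie below the median.

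Compared with other genes, Wnt9a carried many peaks for its length. At least 5 peaks with pyruvate were found in 261 of the 7235 named genes (3.61%), Wnt9a included, and at least 4 without pyruvate in 784 (10.8%). Among the 1114 genes with a located body of 20 to 40 kb, 10 (0.898%) had at least 5 peaks with pyruvate and 38 (3.41%) at least 4 without, and the median gene had 1 peak in each list. Since the genes were chosen with such values known, these shares describe Wnt9a and test nothing.

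The genes most like Wnt9a were found from 4 counts per gene, the peaks in each list and those that overlap the other list. Exactly the counts of Wnt9a (5 with pyruvate, 4 without, 4 overlapping in each) were found in 6 other genes. Among those closest to it in summed peak width over both lists were Slc8a1 (a sodium-calcium exchanger), X99384, Svil (supervillin, an actin-binding protein) and Tfeb (a transcription factor of lysosomal genes). Their summed widths ran from 2325 bases in Tfeb to 2673 bases in Slc8a1, against 2897 bases in Wnt9a. Each had a longer body than Wnt9a, from 55.4 kb in Tfeb to 264 kb in Slc8a1.

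Wnt4, a ligand known from kidney and female reproductive tract development, had 0 peaks in the list with pyruvate and 2 in the list without. The lists give it (ENSMUSG00000036856) a body of 22.2 kb on the plus strand of chromosome 4 (chr4:136833404-136855641), and both peaks lay inside it. One was 172 bases wide (chr4:136842194-136842366), at percentile 13.02 of its list, and the other 217 bases wide (chr4:136843162-136843379), at percentile 38.05. Both were therefore narrower than the median peak without pyruvate, 241 bases. Their centres lay 8876 and 9866 bases from the start of the body, with 796 bases between the peaks.

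The nearest peak with pyruvate lay 40069 bases from the first Wnt4 peak and 39056 bases from the second, where the median for peaks without a partner in the list without pyruvate was 41.3 kb. Among the 2531 genes with a peak only without pyruvate, which are 35.0% of the named genes, 432 (17.1%) had at least 2 such peaks, as Wnt4 did. When only peaks 250 or more bases wide were kept, or with the list without pyruvate limited to its 11907 widest peaks, Wnt4 had 0 peaks in either list. The latter limit kept peaks of at least 218 bases, and the wider Wnt4 peak, at 217 bases, fell just short of it. Wnt9a kept peaks in both lists under these limits, with 4 with pyruvate and 3 without for a width of at least 250 bases, and 5 and 3 for the widest peaks. The lists also assign Wnt4 to the axon guidance pathway.

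Wnt7a, the ligand of satellite cell expansion, Fzd7, its receptor, and Sfrp1, a secreted antagonist, had 0 peaks in their bodies and 2-kb flanks with pyruvate and 0 without. Of 21896 protein-coding genes of the RefSeq table (GRCm38.p6, used for names and gene order), 27.1% had a peak in either list, 15.2% in both, 2.62% only with pyruvate and 9.26% only without. Against that background, 3 of 5 members without a peak is not a count that sets them apart. The lists hold no position for these 3 genes, so the stretch in which each lies was bounded by the nearest protein-coding genes that the lists do name on either side in the RefSeq order.

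Sfrp1 lies between Golga7 and Zmat4 with no other protein-coding gene in that order, a stretch of 377 kb between their regions. It held 1 peak with pyruvate and 2 without. The peak with pyruvate was 170 bases wide (chr8:24580280-24580450) and overlapped a peak of 368 bases without pyruvate (chr8:24580230-24580598). The other peak without pyruvate was 197 bases wide (chr8:24707681-24707878) and had no partner. The distance of these peaks to Sfrp1 cannot be read from the lists.

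Wnt7a lies between Fbln2 and Tmem43, a stretch of 216 kb in which Chchd4 also lies. It held 3 peaks with pyruvate and 4 without. All 3 with pyruvate had partners and stood close together, over 1626 bases with pyruvate (chr6:91235286-91236912) and over 1526 bases without (chr6:91235357-91236883). Widths in this group were 369, 252 and 214 bases with pyruvate and 195, 266 and 174 bases without. The further peak without pyruvate (chr6:91405843-91406058, 215 bases) had no partner. A group of shared peaks thus stood in the stretch that holds Wnt7a, outside every gene region of the lists, and the files do not tie it to a gene.

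Fzd7 lies between Cdk15 and Cd28, a stretch of 1364 kb with 12 other protein-coding genes that the lists do not name. It held 6 peaks with pyruvate, 4 of them overlapping the other list, and 6 without pyruvate, also with 4 overlapping. All 12 genes lie between Fzd7 and Cd28, so Fzd7 is next to Cdk15 in the RefSeq order. From the Cdk15 side, the shared peaks with pyruvate stood at chr1:59441341-59441533, chr1:59466523-59466802, chr1:59532483-59532832 and chr1:60629549-60629796. The distance of these peaks to Fzd7 cannot be read from the lists, which hold no position for it.

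The neighbourhoods of Wnt9a and Wnt4 were read in the same way. Wnt9a lies between Arf1 and Snap47, with Wnt3a, a ligand gene of the same family, and Prss38 also in the stretch of 179 kb and without a peak of their own. Outside the Wnt9a body, the stretch held 1 peak with pyruvate, 51047 bases away, and 2 without, 12832 and 36386 bases away, and none of these had a partner. Sharing around Wnt9a was thus confined to peaks inside the gene, as far as Arf1 and Snap47.

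Wnt4 lies between Zbtb40 and Cdc42, a stretch of 271 kb, and here the shared peaks stood outside the gene. The stretch held 2 peaks outside Wnt4 with pyruvate and 4 without, 2 of which overlapped. The shared peaks lay 48602 and 76665 bases from the Wnt4 body with pyruvate, and were 282 and 296 bases wide there, against 178 and 402 bases without.

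The rest of the pathway was described from a list of 93 genes with 9 roles. Of these genes, 41 had a peak in at least 1 list (44.1%, against 27.1% of RefSeq protein-coding genes). All 93 were matched by name, but only 5938 of the 7235 names in the lists matched that table. A protein-coding gene under an unmatched name counts there as one without a peak, so the 27.1% may be too low. Long genes have more room for peaks, but the lists locate a body only for genes with a peak inside it. The 34 listed genes with a located body had a median length of 84.8 kb, against 47.7 kb for all 5755 genes with one. The part of length in the higher share was not tested, and these lengths cannot show it because genes without a peak have none. Of the 41 genes, 21 had a peak in both lists (51.2%), 7 only with pyruvate (17.1%) and 13 only without (31.7%). Among all named genes these shares were 55.1%, 9.95% and 35.0%. With the list without pyruvate limited to its widest peaks, as many as the other list holds, the order of the last groups turned, with 9 listed genes only with pyruvate and 5 only without, as it did for all genes (1320 and 1219).

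**Figure D3:**
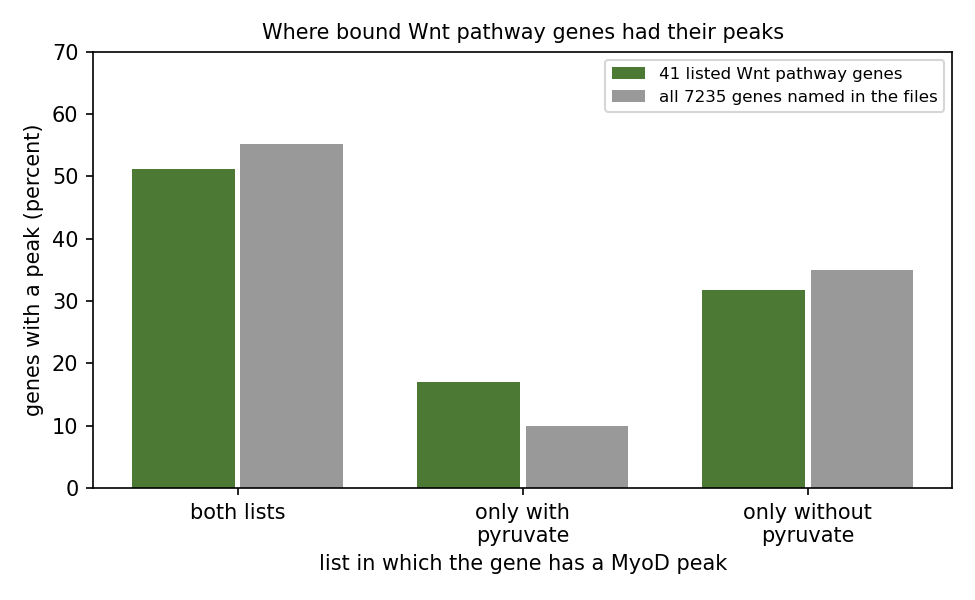
Percent of genes with a MyoD peak in both lists, only with pyruvate or only without, for the 41 listed Wnt pathway genes that had a peak (left bars) and for all 7235 genes named in the lists (right bars). Peaks in both lists were the most frequent class in both sets, at 51.2% and 55.1%.

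Among the 19 ligand genes, 5 had a peak (26.3%, near the 27.1% of RefSeq protein-coding genes). These were Wnt9a and Wnt7b in both lists, Wnt10a only with pyruvate, and Wnt4 and Wnt5b only without. Wnt9a alone held 5 of the 7 ligand peaks with pyruvate and 4 of the 10 without. Wnt7b, the closest relative of Wnt7a, had 1 peak with pyruvate (222 bases) and 3 without (the widest 308 bases), and the shared one lay about 7 kb into the gene, with centres 7102 and 7072 bases from the start. The single Wnt10a peak was 182 bases wide, at percentile 11.8 with pyruvate. Wnt5b, a ligand of the branches that do not use beta-catenin, had 1 peak of 478 bases without pyruvate, at percentile 95.5, which made it the widest unpartnered peak among the ligands. Wls, the carrier that brings Wnt proteins to the cell surface, had 3 peaks with pyruvate and 2 without, the widest 426 and 501 bases.

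Of the 10 Frizzled receptor genes, 3 had a peak and 0 had one in both lists, where 27.1% and 15.2% of RefSeq protein-coding genes did, so the share with a peak was near that of all genes. Fzd6 had 1 peak with pyruvate (180 bases), and Fzd1 and Fzd9 each had 1 without (209 and 219 bases). The centre of the Fzd1 peak lay 210 bases from its start. Fzd7 was thus 1 of 7 receptor genes without a peak. Among the co-receptor genes, 4 of 5 had a peak, 3 of them in both lists, where 27.1% and 15.2% of RefSeq protein-coding genes did. Lrp5 had 1 shared peak, 345 bases wide with pyruvate and 441 without, and Lrp6 had 1 of 194 bases only without. Ror1 had 4 peaks with pyruvate and 3 without, 3 of them shared. Ryk had a peak in both lists (1 with pyruvate, 2 without) at places that did not overlap.

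Of the 13 antagonist genes, 3 had a peak (23.1%, near the 27.1% of RefSeq protein-coding genes), and Sfrp1 was 1 of 10 without. Kremen1, a receptor of the Dickkopf antagonists, had 6 peaks with pyruvate and 8 without, the most of any listed gene with pyruvate. All 6 with pyruvate had a partner, where 71.8% of all peaks of that list did. Over all 93 listed genes, 42 of 56 peaks with pyruvate had one. Dkk3 (187 bases) and Wif1, a secreted inhibitor that binds Wnt proteins (216 bases), each had 1 peak only without pyruvate. In the R-spondin module, which sets the number of Frizzled receptors at the cell surface, 6 of 9 genes had a peak (66.7%). The share over RefSeq protein-coding genes was 27.1%. Located bodies in this module ran from 96.6 kb in Lgr4 to 169 kb in Znrf3. The median over all genes with a located body was 47.7 kb, and the part of length was not tested. Lgr6 had 2 peaks with pyruvate and 6 without, and Znrf3, a ubiquitin ligase that removes Frizzled receptors, had 3 and 5. Among the Lgr6 peaks without pyruvate, those at chr1:136917628-136917886 and chr1:136917804-136918005 overlapped each other and were counted separately.

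Inside the cell, 4 of 13 transducer genes and 7 of 12 nuclear genes had a peak, against 27.1% of RefSeq protein-coding genes. A peak only with pyruvate was found in 2 genes of each role and a peak only without in 0, where 2.62% and 9.26% of RefSeq protein-coding genes had one. Nkd1, an inhibitor that binds Dishevelled, had 3 peaks with pyruvate (the widest 311 bases) and 0 without. Among listed genes whose peaks were all in 1 list, it had the most. The other genes of these roles with a peak only with pyruvate were Gsk3a, Tcf7 and Bcl9l. Each had 1 peak, of 197, 177 and 233 bases, below the median of 250 bases in that list. Tcf7l1 and Tcf7l2, nuclear partners of beta-catenin, had 3 and 4 peaks with pyruvate and 8 and 6 without. Every one with pyruvate had a partner, where 71.8% of all peaks of that list did. Over all 93 listed genes, 42 of 56 peaks with pyruvate had one, so the pathway as a whole was near that share. Of the 9 planar polarity genes 7 had a peak (77.8%, against 27.1% of RefSeq protein-coding genes). These were Daam1 and Daam2 in both lists, Prickle2 only with pyruvate, and Vangl1, Vangl2, Celsr3 and Prickle1 only without. Vangl2, which is known to act in Wnt7a signalling through Fzd7 in satellite cells, had 1 peak of 200 bases without pyruvate.

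**Figure D4:**
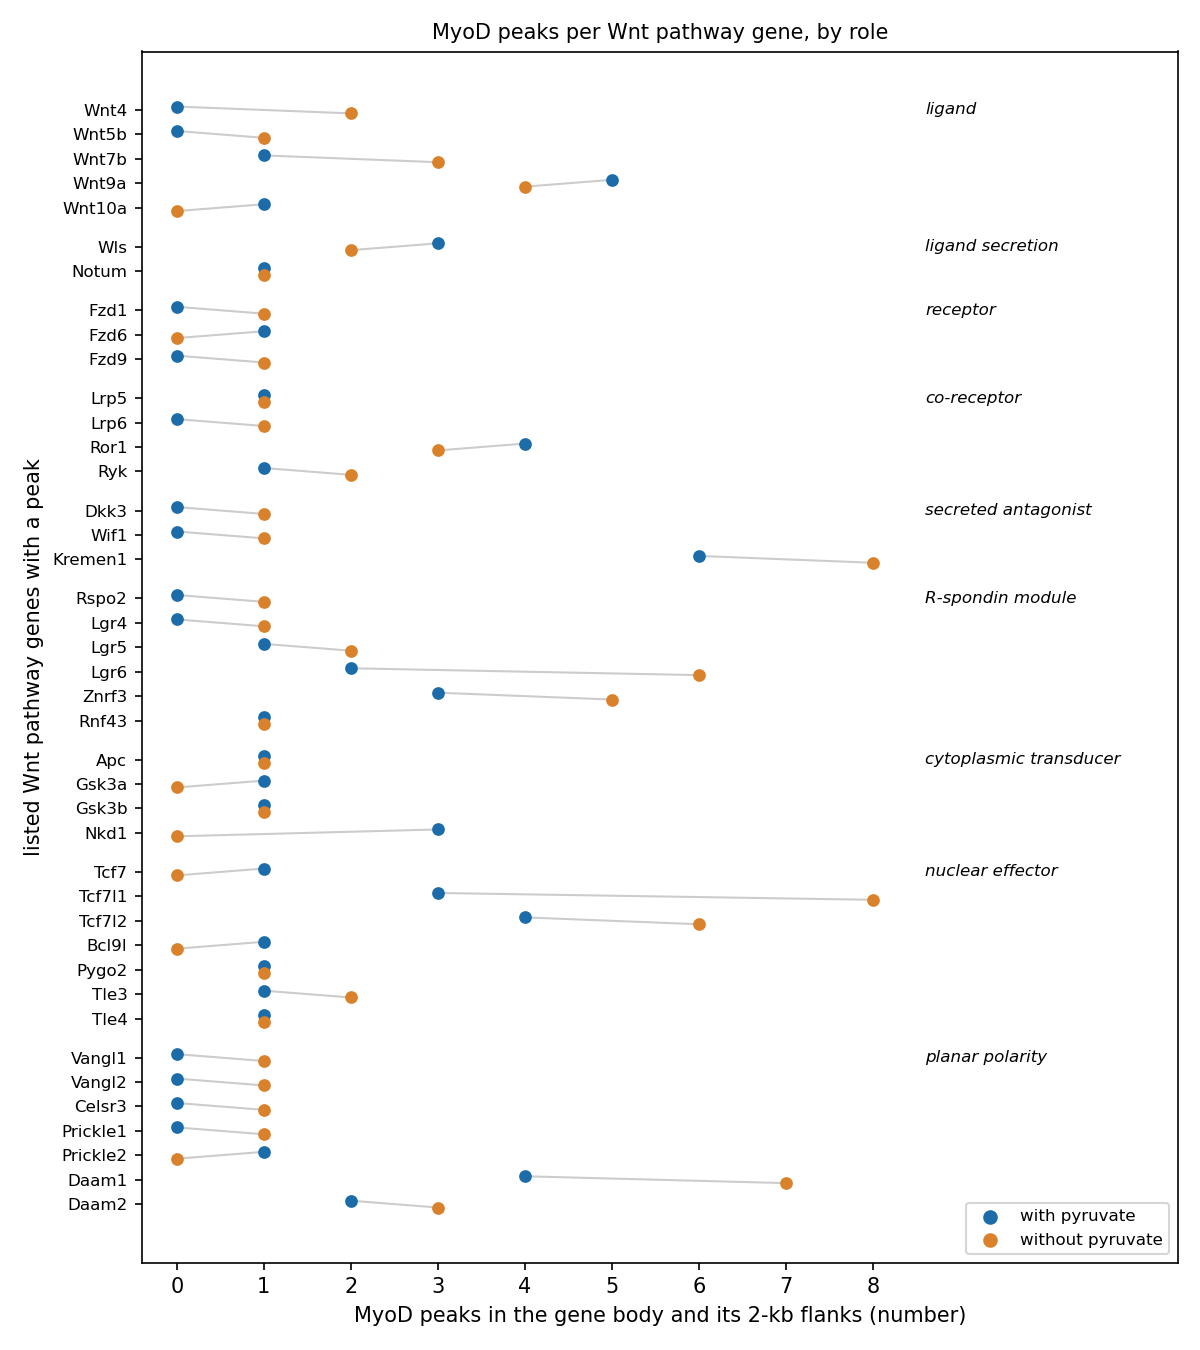
Number of MyoD peaks in the body and 2-kb flanks of each of the 41 listed Wnt pathway genes that had a peak, grouped by role, with points for the lists with and without pyruvate joined by a line. Wnt9a, at 5 with pyruvate and 4 without, has the most of the ligands with either, and Kremen1 and Tcf7l1 reach 8 without pyruvate.

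The lists themselves assign 58 of their genes to the KEGG Wnt signaling pathway, 24 of which are in the list of 93. Of the 58, 29 had a peak in both lists, 7 only with pyruvate (12.1%) and 22 only without (37.9%), against 55.1%, 9.95% and 35.0% of all named genes. These differences were not tested.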

How the data were processed

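MyoD ChIP-seq peaks of 2 libraries, 1 per condition, were used. Per the submitters' processing notes, the authors used bcl2fastq 2.19, Bowtie2 2.1.0 and MACS2 2.1.1 with mouse build mm9. Not given in the sources used here are the calling threshold, how inputs served, read filters and the annotation's origin. The deposited lists pair peaks with gene bodies and 2000-base flanks, per the file headers and values, and their fold enrichment column holds 0. Depth is unknown.

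Rows (13076 with pyruvate, 20902 without) were reduced to distinct peaks. Coordinates are as deposited. Width is end minus start, and percentiles are mid-ranks within a list. Genes were pooled by symbol, and 5755 had 1 located body. Peaks overlapping by at least 1 base counted as shared. Of 7235 names, 5938 matched RefSeq protein-coding genes, older symbols included. Promoter sequences are from RefSeq. The overlap code was tested on simulated peaks: 3000 of 3000 planted overlaps were found, and 0 of 3000 peaks placed apart.

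Members and gene lists were chosen with earlier results of these data known. Named genes were the members, listed Wnt genes, neighbours and the 5 genes most like Wnt9a, 1 of which is not reported here. Alternatives were stricter overlap, a width of at least 250 bases, the widest peaks of the longer list, and peaks near starts or in flanks. Tools were matplotlib 3.10.9, scipy 1.17.1, pandas 2.3.3, numpy 2.4.6 and Python 3.11.15.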

Additional observations from a re-analysis of the deposited data

How the results depend on the processing

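Of 34 values recomputed under alternatives, 19 stayed within 1.5 times the reported count and 15 moved. All alternatives were planned. A reciprocal overlap of 50% or centres within 100 bases left the member counts at 5 peaks with pyruvate and 6 without, 4 of each shared. With peaks of at least 250 bases, member peaks without pyruvate numbered 3. Listed genes were then 12 in both lists and 3 only with pyruvate, and all genes 2128 in both and 1487 only without. Limiting the longer list to its widest peaks (218 bases or more) again gave 3 member peaks without pyruvate, 5 listed genes only without pyruvate, and for all genes 1320 only with pyruvate and 1219 only without. Counting only peaks within 2 kb of a start or in a flank gave listed genes 6 in both, 4 only with and 5 only without, and all genes 1486, 445 and 1320. These settings remove peaks by construction. No paired analysis was possible because each condition had 1 ChIP library. Depth limits which narrow peaks could be found, and it is unknown for both lists.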
